A study of Mus musculus with 8 samples.

Results

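A set of genes known from the epididymis, 10 of the 18194 genes measured, were followed through testis development: the beta-defensins Defb1, Defb2, Defb9, Defb11 and Defb29, the serine protease inhibitors Spink8, Spink10 and Spink12, the WAP domain protein Wfdc15b, and Pcp4. All 10 had a probe set. They were chosen by their difference between SCSKO and Shp2f/f testes at 1 week, which was high for every one of them. The size of that difference is therefore only described here, without a test, and the levels on the 2 arrays of that age took part in the choice. The values come from whole testes of C57Bl/6 mice on Affymetrix arrays. Mice of the Shp2f/f genotype, which carry floxed Shp2 alleles and no Cre, were the controls, and SCSKO mice carry the same alleles together with Amh-Cre, so that Cre is driven by the promoter of Amh, a Sertoli cell gene, from fetal life on. RNA was taken before birth on embryonic day 16.5 (written E16.5) and after birth at 3 days (D3), at 1 week (1W) and at an age of 2 weeks (2W), with 1 array for each genotype at each age and 8 arrays in all. Neither the labels nor the methods say how many animals an array stands for. With 1 array per group, no difference within an age has a replicate check.

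The epididymis is the coiled duct in which sperm mature after they leave the testis. Its epithelium arises from the Wolffian duct under androgen and releases many small proteins into the lumen. Beta-defensins are short cationic peptides held together by disulfide bonds, with antimicrobial activity, and in the male tract several of them bind the surface of sperm. Spink proteins carry a Kazal domain and Wfdc proteins a WAP domain, and both folds are found in secreted inhibitors of serine proteases. Pcp4 (also called PEP-19) differs from the rest, since it is a small calmodulin-binding protein of the cytoplasm and is not secreted. Some markers of the testis were well above the array medians (log2 of 4.82 to 4.90) in the Shp2f/f arrays. There the Sertoli cell gene Cst9 lay between 11.46 and 12.23 on the log2 scale. The Leydig cell gene Cyp17a1, a steroidogenic enzyme, lay between 9.45 and 12.32. Not all were bright, since the Sertoli cell gene Espn lay between 4.51 and 4.66 in Shp2f/f. For Cst9, SCSKO minus Shp2f/f was -1.50 at D3 and -1.30 at 1W. At 1W the mean log2 level of 4 poly-A spikes was 8.53 in Shp2f/f and 8.51 in SCSKO, and at 2W it was 8.80 and 8.44. The difference between the Gapdh probe sets for the 3′ and the 5′ end was 0.06 on both arrays at 1W, and at 2W it was 0.13 in Shp2f/f against 0.23 in SCSKO.

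Of the 10 genes, 4, namely Defb1, Defb2, Defb9 and Defb11, lie in 1 run of neighbouring beta-defensin genes on chromosome 8 of the mouse reference GRCm38.p6, together with Defb10, which is not one of the 10. Upstream sequences from RefSeq were at hand for 5 of the 10 genes (Defb9, Defb11, Defb29, Wfdc15b and Pcp4). The 250 bases before the gene start are shown for Defb10, Defb9 and Defb11, because these neighbours moved alike on the arrays and their upstream regions are related. Each is written 5′ to 3′ on the strand of its gene, and capitals mark runs of at least 10 bases that all 3 sequences share exactly. Defb10 lies at chr8:21858651-21858900 on the plus strand, Defb9 at chr8:21885435-21885684 on the minus strand and Defb11 at chr8:21906433-21906682 on the minus strand.
Defb10: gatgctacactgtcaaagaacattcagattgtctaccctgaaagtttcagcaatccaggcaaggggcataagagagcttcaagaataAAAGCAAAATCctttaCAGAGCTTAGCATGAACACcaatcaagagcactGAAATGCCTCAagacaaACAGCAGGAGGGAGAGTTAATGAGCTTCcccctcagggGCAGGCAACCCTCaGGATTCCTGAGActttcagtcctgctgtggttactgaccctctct
Defb9: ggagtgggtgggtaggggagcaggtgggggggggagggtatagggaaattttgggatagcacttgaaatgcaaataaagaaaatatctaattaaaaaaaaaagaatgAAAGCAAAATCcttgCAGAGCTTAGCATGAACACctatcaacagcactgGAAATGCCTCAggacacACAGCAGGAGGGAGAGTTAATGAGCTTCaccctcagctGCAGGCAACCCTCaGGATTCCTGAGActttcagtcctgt
Defb11: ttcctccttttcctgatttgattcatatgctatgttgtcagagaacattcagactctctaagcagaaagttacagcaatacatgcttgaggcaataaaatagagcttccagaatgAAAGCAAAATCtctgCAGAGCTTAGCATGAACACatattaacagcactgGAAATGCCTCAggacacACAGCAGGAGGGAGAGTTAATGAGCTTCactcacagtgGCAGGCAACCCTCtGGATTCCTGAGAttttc
In each of the 3 sequences, 94 of the 250 bases fell in 6 shared runs, in the same order. The 3 pairs were identical at 72.4% to 75.6% of the 250 bases in a global alignment, against 54.0% to 60.8% for the 12 other pairs among these 3 sequences and those of Defb29, Wfdc15b and Pcp4. The hexamer AGAACA, which resembles the core of androgen response elements, was found on either strand upstream of 2 of the 5 genes, Defb11 and Wfdc15b, and also of Defb10. It is held by 16.1% of all upstream windows of this length. The hexamer TATAAA was found upstream of none of the 5 on either strand, and 12.4% of all windows hold it. These matches are a description of letters in a window.

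Levels are given as log2 of the deposited intensity, in the order E16.5, D3, 1W and 2W. Levels of different probe sets are not compared, since each binds with its own strength. A difference is SCSKO minus Shp2f/f on the same log2 scale, and 1 unit is a 2-fold difference. In bulk tissue, fewer cells of a type and less RNA per cell cannot be told apart.

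Among the beta-defensins, Defb1, which is made by many epithelia including those of kidney and epididymis, was at 3.56, 4.80, 4.22 and 7.35 in Shp2f/f and at 3.52, 5.10, 7.07 and 6.05 in SCSKO. The genotypes lay close together at E16.5 and D3, SCSKO was the higher at 1W, and Shp2f/f was the higher at 2W. The differences were -0.03, 0.30, 2.85 and -1.31, so that the 1W level was 7.23-fold higher in SCSKO and the 2W level 2.47-fold lower. A second, dimmer Defb1 probe set, whose suffix marks probes shared by several transcripts, gave differences of 1.04 at 1W and -0.93 at 2W, in the same directions with smaller sizes. Defb2 was at 3.99, 6.05, 6.63 and 8.68 in Shp2f/f and at 4.82, 6.19, 9.48 and 7.68 in SCSKO. It too was higher in SCSKO at 1W, by 2.85, and lower at 2W, by -1.01.

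Defb9 was at 2.73, 3.05, 2.98 and 6.36 in Shp2f/f and at 2.89, 3.21, 6.02 and 5.03 in SCSKO. It lay below the median of the array up to D3 in both genotypes and at 1W in Shp2f/f, and first lay above it at 1W in SCSKO and at 2W in Shp2f/f. Its differences were 3.05 at 1W and -1.33 at 2W. Defb11 was at 4.11, 4.78, 4.43 and 6.58 in Shp2f/f and at 3.78, 5.03, 6.96 and 5.80 in SCSKO. Its differences of 2.52 at 1W and -0.78 at 2W have the same signs as those of Defb9, but its probe set is of the kind that can bind related transcripts, and the part of its paralogs in the signal was not tested. Defb29 was at 4.44, 7.57, 6.62 and 8.10 in Shp2f/f and at 3.61, 7.32, 9.14 and 7.36 in SCSKO. It was lower in SCSKO at E16.5, D3 and 2W, by -0.83, -0.25 and -0.75, and higher by 2.52 at 1W.

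**Figure D1:**
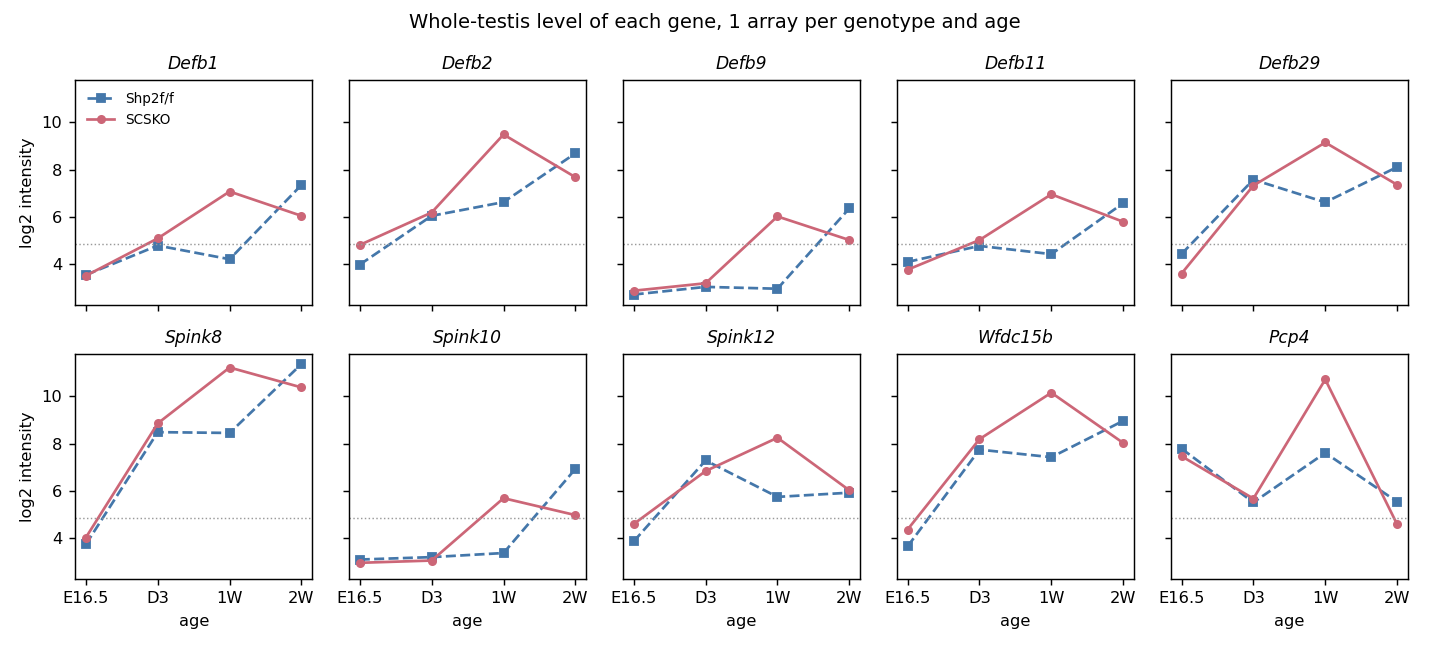
Log2 intensity of each of the 10 genes (vertical axis) at 4 ages (horizontal axis) in Shp2f/f (squares, dashed) and SCSKO (circles, solid), with 1 array per point and the mean of the array medians as a dotted line. In all 10 panels the SCSKO line peaks at 1W, and in 8 the Shp2f/f line is highest at 2W, the exceptions being Spink12 and Pcp4.

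Of the protease inhibitors, Spink8 was at 3.75, 8.48, 8.45 and 11.35 in Shp2f/f and at 4.04, 8.85, 11.21 and 10.37 in SCSKO. The SCSKO level at 1W was near the Shp2f/f level at 2W, with a difference of -0.15 between these 2 arrays. Between genotypes the differences were 2.76 at 1W and -0.99 at 2W, a 6.77-fold higher and a 1.98-fold lower level. Spink10 was at 3.11, 3.21, 3.39 and 6.93 in Shp2f/f and at 2.97, 3.07, 5.70 and 4.98 in SCSKO. It stayed below the array median in Shp2f/f until 1W, and of the 10 genes it had the smallest difference at 1W, 2.31, and the lowest at 2W, -1.95, a 3.86-fold lower level in SCSKO. Spink12 was at 3.87, 7.29, 5.75 and 5.93 in Shp2f/f and at 4.61, 6.84, 8.25 and 6.03 in SCSKO. Its difference was 2.49 at 1W and 0.10 at 2W, so it was the exception of the 10 that did not lie lower in SCSKO at 2W.

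Wfdc15b was at 3.67, 7.74, 7.42 and 8.96 in Shp2f/f and at 4.38, 8.19, 10.14 and 8.03 in SCSKO. Its differences were 2.72 at 1W and -0.93 at 2W. Pcp4 was at 7.79, 5.52, 7.61 and 5.55 in Shp2f/f and at 7.47, 5.68, 10.70 and 4.60 in SCSKO. It had the highest difference of all genes at 1W, 3.09, or 8.54-fold, and lay lower in SCSKO at 2W, by -0.95. Unlike the others it was well above the array median at E16.5, fell to D3 and was higher again at 1W in both genotypes.

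By age, 10 of the 10 genes were at least 2-fold higher in SCSKO at 1W, as the choice required, where 0.368% of all genes were, and 0 were at least 2-fold lower (0.132% of all genes). Their median difference at 1W was 2.74, with a range of 2.31 to 3.09. Of the 14 genes at or above the lowest of them at 1W, 4 were not among the 10: 2300002M23Rik (2.90), the serpin gene Serpina1f (2.69), Tmed6 (2.63), whose family sorts cargo between the endoplasmic reticulum and the Golgi, and the claudin gene Cldn8 (2.33). The lowest of the 10 was Spink10 (2.31), and the first gene below it was Npy, which encodes neuropeptide Y (2.22). The arrays at 2W were not used for the choice. There, 4 of the 10, Defb1, Defb2, Defb9 and Spink10, were at least 2-fold lower in SCSKO, against 1.09% of all genes, and 0 were at least 2-fold higher, against 0.368%. In all, 9 of the 10 lay lower, and the median difference was -0.97, beside -0.000874 over all genes. At E16.5, 0 of the 10 were at least 2-fold higher (0.0495% of all genes) or lower (0.335%), and the median was 0.06 with 5 genes on each side of 0. At D3, 0 were at least 2-fold higher (0.115%) or lower (0.066%), and the median was 0.16. There is no test of these differences, since each rests on 1 array per genotype.

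**Figure D2:**
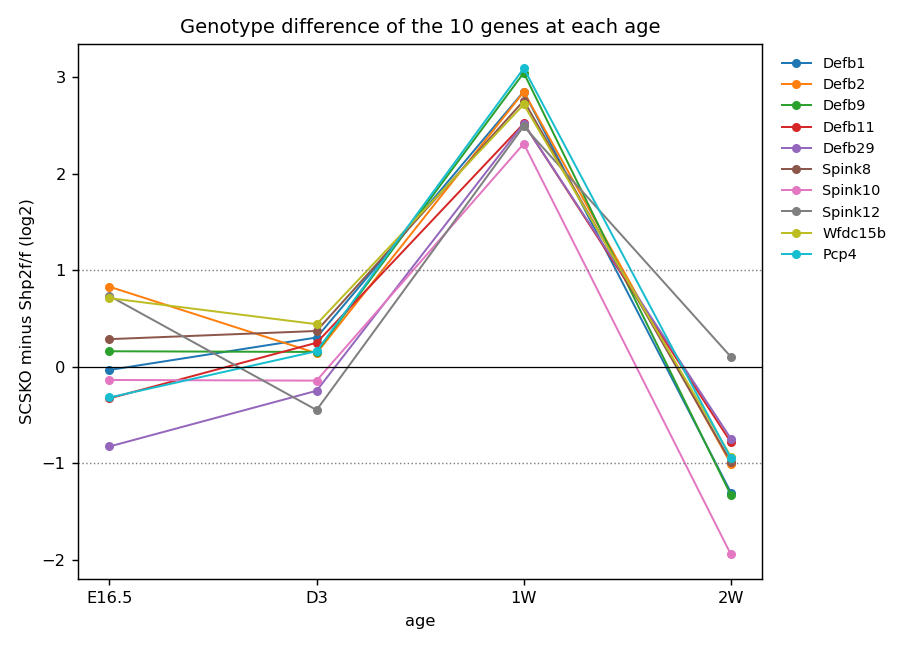
Difference between SCSKO and Shp2f/f (log2, vertical axis) of the 10 genes at each age (horizontal axis), 1 array per genotype, with dotted lines at a 2-fold difference either way. The 10 lines lie within -0.83 and 0.83 at E16.5, between 2.31 and 3.09 at 1W, and below 0 at 2W apart from Spink12 (0.10).

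Over the 3 ages that the choice did not use (E16.5, D3 and 2W), limma was fitted to 6 arrays with age as a block. Its genotype term is a single shift common to the 3 ages. No gene was called for genotype at a Benjamini-Hochberg adjusted p under 0.05, so the background is 0% and the 10 genes hold 0 calls. At an unadjusted p under 0.05 there were 714 of the 18194 genes, and 1 of the 10, Defb29. Its difference was -0.61 ± 0.14 (SE, 3 arrays per genotype), lower in SCSKO at 3 of 3 ages, and it failed the correction in limma (adjusted p = 0.942). The largest of the 3 differences, -0.83 at E16.5, came from 2 arrays on which Defb29 was below the array median. The methods' t-test on the same values, run unpaired over the 3 ages, made 0 calls after adjustment. At an unadjusted p under 0.05 it held 278 of the 18194 genes, none of them among the 10. An unpaired test counts the change with age as scatter, so it is no second check of Defb29. In limma without the age block, the SE of Defb29 was 1.39. For Spink8 the interval of the genotype effect ran from -0.80 to 0.57, and for Spink10 from -1.66 to 0.18. Such intervals are for the common shift and do not bound the difference at a single age. At 2W the differences of Spink8 (-0.99) and Spink10 (-1.95) lay outside them.

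The same fit gave the change with age over both genotypes together. From E16.5 to 2W, 9 of the 10 genes rose, where 18.0% of all genes rose, and Pcp4 fell, where 14.0% fell. Spink8 rose most, by 6.96 ± 0.34 (SE, 2 arrays per age, limma adjusted p = 0.000243), followed by Wfdc15b at 4.47 ± 0.39 (adjusted p = 0.00101), whereas Pcp4 fell by 2.55 ± 0.26 (adjusted p = 0.00164). From E16.5 to D3, 6 of the 10 rose (10.3% of all genes): Defb2, Defb11, Defb29, Spink8, Spink12 and Wfdc15b, by 0.96 for Defb11 to 4.77 for Spink8, and Pcp4 fell (7.38% of all genes). Defb1, Defb9 and Spink10 did not pass the test in this interval, with changes of 1.41 ± 0.37 (limma adjusted p = 0.0554), 0.32 ± 0.38 and 0.10 ± 0.45. From D3 to 2W, 6 rose (7.94% of all genes): Defb1, Defb2, Defb9, Defb11, Spink8 and Spink10, by 1.29 for Defb11 to 2.82 for Spink10. None of the 10 was called lower in this interval (6.60% of all genes), and Defb29, Wfdc15b, Spink12 and Pcp4 did not pass the test. Spink12 came nearest, at -1.08 ± 0.27 (limma adjusted p = 0.0529), and it was called lower with an intensity trend (adjusted p = 0.0350), with log2(value + 16) (0.0438) and without either E16.5 array (0.0171), with a range of 0.0171 to 0.293 over its alternatives. These 6 calls rest on the D3 arrays: most were lost when either was left out, as were most calls over all genes. Such a fit leaves 1 array at D3. The median change of the 10 from D3 to 2W was 1.52 in the full fit. It was 1.08 without the Shp2f/f array of D3 and 1.93 without the SCSKO array of D3.

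Within each genotype the steps between ages are given without a test. From E16.5 to D3, 6 of the 10 were at least 2-fold higher in Shp2f/f, where 3.61% of all genes were, and from 1W to 2W, 8 were, where 1.84% of all genes were. In SCSKO, 10 of the 10 were at least 2-fold higher at 1W than at D3 (0.665% of all genes), and 7 were at least 2-fold lower at 2W than at 1W (2.92% of all genes). The arrays at 1W took part in the choice, so the last 3 of these counts are not independent of it. Compared across ages, the SCSKO level at 1W was within 0.40 of the Shp2f/f level at 2W for Defb1, Defb9, Defb11 and Spink8, 1.23 lower for Spink10, and higher for the other 5, by 0.79 for Defb2 to 5.15 for Pcp4. Over the 8 arrays, 9 of the genes followed one another with Pearson's r of 0.35 to 0.99 over their 36 pairs, with a median of 0.88, while Pcp4 correlated with each of them between -0.13 and 0.15. These correlations share the age effect and the arrays that chose the genes, and they are given as a description.

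The chromosomal neighbours of the 10 were mostly apart from them on the arrays. Along the run on chromosome 8, the order in RefSeq is Defb1, Defb50, Defb2, Defb10, Defb9, Defb11, Defb15, Defb35 and Defb13, of which Defb50 had no named probe set. Defb10 was at 3.23, 3.36, 3.32 and 4.70 in Shp2f/f and at 3.05, 3.40, 5.25 and 3.79 in SCSKO, a difference of 1.93 at 1W and of -0.91 at 2W. The 3 genes beyond Defb11 had differences of -0.08 (Defb15), 0.35 (Defb35) and 0.10 (Defb13) at 1W and of 0.01, 0.15 and 0.05 at 2W, and they were below the median of every array. Defb29 is followed by Defb21 and then Defb19, with differences at 1W of 0.16 and -0.71, and Defb28 on its other side was not measured. Wfdc15b lies between Wfdc15a (-0.13) and the seminal vesicle gene Svs2 (-0.29). Of the 44 genes within 3 protein-coding genes on either side of the 10, 28 were measured. Of these, Defb10 was at least 2-fold higher at 1W, none was lower, and 0 were at least 2-fold apart at 2W in either direction.

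**Figure D3:**
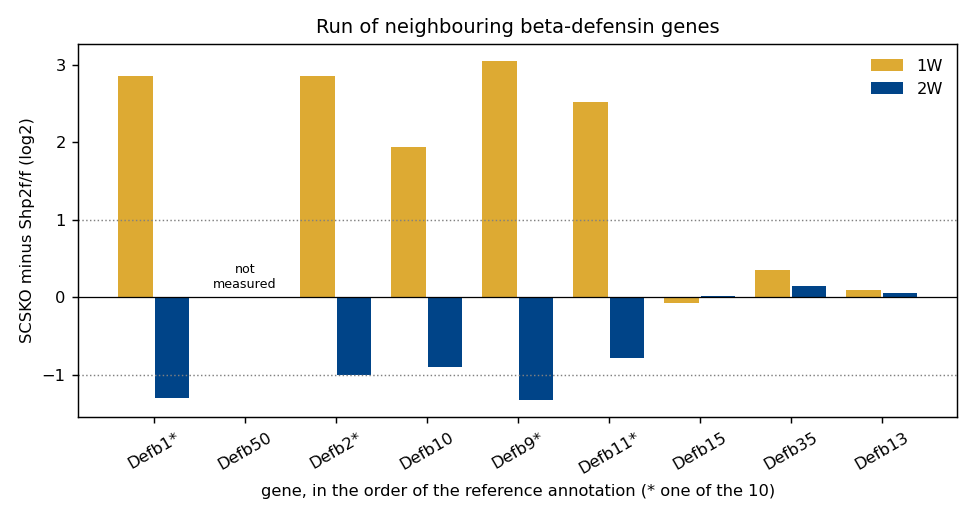
Difference between SCSKO and Shp2f/f (log2, vertical axis) at 1W and 2W for 9 neighbouring beta-defensin genes in the order of GRCm38.p6 (horizontal axis, not to scale), 1 array per genotype and age, with dotted lines at a 2-fold difference. The 5 measured genes from Defb1 to Defb11 lie at 1.93 to 3.05 at 1W and at -1.33 to -0.78 at 2W, and Defb15, Defb35 and Defb13 lie between -0.08 and 0.35.

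Within the families, 15 further beta-defensin genes were measured, with a median difference of 0.16 at 1W and 0.01 at 2W, beside -0.02 and -0.000874 over all genes. Of the 15, 4 reached the median of any array. At 1W, 2 were at least 2-fold higher in SCSKO, Defb10 and Defb42, and at 2W, 2 were at least 2-fold lower, Defb42 and Defb6. Defb42 was at 6.73, 6.70, 6.95 and 10.60 in Shp2f/f and at 6.72, 6.56, 8.91 and 9.52 in SCSKO. SCSKO was the higher at 1W by 1.96 and the lower at 2W by -1.08, the signs seen in most of the 10, but the level of Defb42 in SCSKO was higher at 2W than at 1W. Defb6 first appeared above the array median at 2W, at 8.22 in Shp2f/f and 6.59 in SCSKO. Defb19, which Sertoli cells of the fetal testis are known to express, was bright on every array, at 11.67, 10.75, 10.57 and 11.48 in Shp2f/f and at 11.10, 9.80, 9.86 and 11.63 in SCSKO. It ran the other way, lower in SCSKO at E16.5, D3 and 1W by -0.57, -0.96 and -0.71, and 0.15 higher at 2W. The 4 further Spink genes (Spink1, Spink2, Spink4 and Spink5) lay between -0.79 and -0.03 at 1W, and the 10 further Wfdc genes between -0.15 and 0.71, with none of either group at least 2-fold apart at any age.

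Other genes of the epididymis were taken as lists. Of 30 measured genes of epididymal and duct epithelium, 12 were at least 2-fold higher in SCSKO at 1W and 0 lower, with a median difference of 0.68, and 10 of 24 were when genes below the median of both arrays were left out. Among them were Cldn8, whose level at 1W was 4.33 in Shp2f/f and 6.66 in SCSKO, the kidney-type cadherin gene Cdh16 (6.48 and 8.44), the homeobox gene Hoxa10 (3.48 and 5.20) and the epithelial adhesion gene Epcam (6.94 and 8.42). The differences of these 4 at 2W were -0.75, 0.20, -0.53 and -0.42, none of them 2-fold. The 2 genes of the list that were at least 2-fold lower at 2W were the keratins Krt7 (-1.39) and Krt19 (-1.11). Krt19 is also on the list of the serous lining given below and is counted again there. Added up within each array, the intensity of the list at 1W was 4230 in Shp2f/f against 5539 in SCSKO, and at 2W it was 4442 against 3908, while that of the 10 genes was 1026 against 7116 at 1W and 4373 against 2225 at 2W. Such sums follow the brightest probe sets, and the brightest of the list in Shp2f/f at 1W were Hoxd9, Esr1 and Hoxd10, with differences of -0.18, -0.14 and -0.10. No listed gene was at 0, since no value in the table was. Among transcription factor genes of the developing duct, Pax8 differed by 1.16 at 1W, Emx2 by 0.58, Hoxa9 by 1.08 and Hoxa11 by 1.14. Others did not rise in this way, with 0.22 for Lhx1, -0.18 for Hoxd9 and -0.10 for Hoxd10. At 2W the difference was 0.87 for Pax8 and 0.36 for Hoxa11, while Emx2 (-0.38) and Hoxa9 (-0.35) were lower in SCSKO. Hoxa11 was then below the array median in both genotypes (3.58 in Shp2f/f and 3.94 in SCSKO). So were Pax8 in Shp2f/f (4.27) and Emx2 in SCSKO (4.78). Other duct genes were dim: Ros1, a receptor tyrosine kinase of the epididymal initial segment, was below the median on all 4 arrays of 1W and 2W (3.04 to 3.11), and so was the homeobox gene Lhx1 (3.03 to 3.47).

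Of 21 measured genes for secreted proteins of the epididymis, 3 were at least 2-fold higher in SCSKO at 1W, Serpina1f, Cuzd1 and Lcn2, and 2 were at least 2-fold lower at 2W, Serpina1f and Cuzd1. Serpina1f was at 2.92, 2.79, 3.50 and 6.81 in Shp2f/f and at 2.79, 2.61, 6.19 and 5.62 in SCSKO, a course like that of Defb9. At 1W Cuzd1 was at 3.37 in Shp2f/f against 4.75 in SCSKO, and at 2W it was at 8.90 against 7.68. The median of this list was 0.07 at 1W, and only 11 of the 21 genes reached the median of any array. When genes below the median of both 1W arrays were left out, 2 of 8 were at least 2-fold higher. Cuzd1 was among those left out. Lists of clear and narrow cells (9 measured genes) and of efferent duct and ciliated cells (11 measured genes) held 0 genes at least 2-fold apart at any age, but only 2 and 3 of their genes reached the median of any array. The part of duct epithelium in the 1W values of the 10 genes was not tested.

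At 2W other lists moved beside the 10 genes. Of 10 smooth muscle genes, 5 were at least 2-fold lower in SCSKO, with a median of -0.93, and of 13 genes of the serous lining of testis and epididymis, 9 were, with a median of -1.11. Actg2, a smooth muscle actin, was at 9.39 in Shp2f/f against 7.06 in SCSKO, and the serous gene Upk3b at 9.38 against 7.49. The summed intensity of the smooth muscle list at 2W was 17453 in Shp2f/f against 9755 in SCSKO, and that of the serous list 2909 against 1626. At 1W neither list held a gene at least 2-fold apart, their medians were 0.07 and 0.19, and 7 of 10 and 12 of 13 genes lay higher in SCSKO. Sertoli cell genes had a median of -0.31 at 1W and 0.50 at 2W (17 measured genes). Of these, 1 was at least 2-fold lower at 1W, Cst9 (-1.30), and 3 were at least 2-fold higher at 2W. Leydig cell genes had medians of -0.26 and 0.28 (10 measured genes, 0 at least 2-fold apart at 1W). At 2W, 2 Leydig cell genes were at least 2-fold higher in SCSKO, the steroidogenic genes Star (2.09) and Cyp17a1 (1.56), and 2 were lower, the steroid-converting enzyme genes Akr1c14 (-1.15) and Hsd11b1 (-1.11). Germ cell genes had a median of -0.19 at 1W and -0.02 at 2W (14 measured genes), with 0 at least 2-fold apart at either age. The part of these tissues in the 2W values of the 10 genes was not tested.

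**Figure D4:**
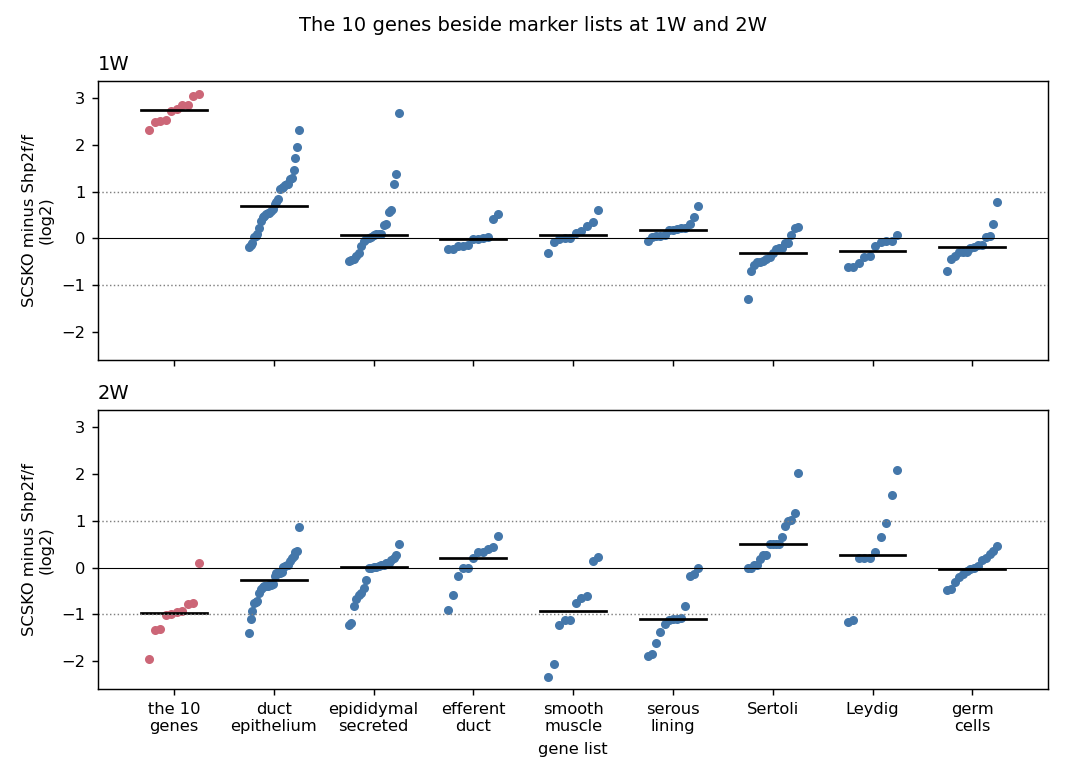
Difference between SCSKO and Shp2f/f (log2, vertical axis) at 1W (top) and 2W (bottom) for the 10 genes (red) and for each measured gene of 8 marker lists (blue), sorted within a list, with the median of each list as a black bar and dotted lines at a 2-fold difference. The median of the 10 genes is 2.74 at 1W and -0.97 at 2W, that of duct epithelium 0.68 and -0.26, and that of the serous lining 0.19 and -1.11.

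The genes most like the 10 were looked for over the 8 arrays, by Pearson's r with the mean course of the 10, among 3727 other genes that reached the array median on some array and varied by at least 1 on the log2 scale. The 10 nearest were Ppm1h (r = 0.94), Epcam (0.94), Pantr1 (0.94), Pou3f3 (0.94), Inmt (0.94), Ano1 (0.94), Plcb1 (0.93), Tsks (0.93), Tmed6 (0.93) and Defb10 (0.92). Pou3f3 encodes a POU domain transcription factor, and Pantr1 is a noncoding transcript of the neighbouring locus. Pou3f3 was 1.40 higher in SCSKO at 1W, the methyltransferase gene Inmt 1.59 higher, and Ano1, which encodes a chloride channel, 0.48 higher. By Spearman's rho, 7 of these genes were again at rank 10 or better, which 16 genes shared through ties, and without the SCSKO array of 1W, 1 was. Without that array the r of these 10 genes was still 0.86 to 0.99, so it was their rank among the 3727 genes that moved. The likeness is a description over 8 arrays that share age and genotype.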

How the data were processed

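Testis RNA of 8 samples was measured on 1 Affymetrix mouse array each. The authors deposited a linear intensity for each of 45101 probe sets, and RMA, with no version, is the tool in their processing notes. Neither the labels nor the methods name the chip definition or the genome build. RMA compresses the differences of dim probe sets. No value was missing. Precision is limited by having so few arrays.

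Log2 of each value was taken. Probe sets with 1 symbol in GEO's platform annotation were kept (34958), 932 with several symbols and 9211 with none were left out, and the brightest probe set by mean over the 8 arrays stood for each of 18194 genes. Differences within an age are single pairs and were counted from a 2-fold threshold. The 10 genes, the gene lists and the comparisons were chosen with earlier results of these data known. Named besides the 10 were family genes at least 2-fold apart, up to 5 of the largest differences per list with a bright array, the 10 nearest courses, and the genes next to the lowest of the 10. The chromosomal neighbours were picked after their values were seen. So were the duct genes Ros1, Lhx1, Hoxd9, Esr1, Hoxd10, Pax8, Emx2, Hoxa9 and Hoxa11, and Cst9, Cyp17a1 and Espn as checks of the tissue.

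limma was fitted to the 6 arrays of E16.5, D3 and 2W with terms for age and genotype (2 residual degrees of freedom), with empirical Bayes moderation, Benjamini-Hochberg adjustment over all genes at 0.05 and 95% intervals. It was tested on simulated data. This design had to pool the spread over ages, so its p-values measure genotype by age scatter and not the spread between animals. Upstream sequences and gene order came from RefSeq for GRCm38.p6, and shared runs, identities and motif matches were computed from them.

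Alternatives were the mean of probe sets, quantile normalization, loess of each pair, log2(value + 16), fold thresholds of 1.5 and 3, a filter on dim genes, an intensity trend, no age block, the methods' t-test run unpaired and leaving out an age or an array. R 4.3.3, limma 3.58.1, Python 3.11.15, numpy 2.4.6, pandas 2.3.3, statsmodels 0.14.6, Biopython 1.88 and matplotlib 3.10.9 were used.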

Additional observations from a re-analysis of the deposited data

Results flagged for a closer look

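Defb1, Defb2, Defb9 and Spink10 drew attention because their genotype differences at 1W and 2W were at least 2-fold in opposite directions. The difference at 2W minus that at 1W was -4.16 for Defb1, -3.86 for Defb2, -4.38 for Defb9 and -4.26 for Spink10 on the log2 scale. The contrast between the ages was not tested, since each age has 1 array per genotype, and the 1W side of it was fixed by the choice of the genes.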

How the results depend on the processing

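No paired analysis was possible because each group holds 1 replicate number, other than by age. That pairing is the age block of the limma fit, and without it 0 genes were called for genotype, with 87 at an unadjusted p under 0.05. All 10 genes remained at least 2-fold higher at 1W with the mean of probe sets, quantile normalization, loess, log2(value + 16), a filter on dim genes and a 3-fold threshold. The choice of the genes by this difference fixed much of that outcome. With 2.31 as the smallest difference and each gene above the SCSKO array median at 1W, the threshold and the filter could not drop any. The median of the 10 at 1W was 2.27 with log2(value + 16) and 2.62 to 2.80 under the other settings. At 2W, 3 or 4 genes were at least 2-fold lower under the 4 scalings, 9 at a 1.5-fold and 1 at a 3-fold threshold. At E16.5, a 1.5-fold threshold gave 3 higher and 1 lower, and the median of the 10 changed sign with quantile normalization (-0.0021) and loess (-0.0075), as a value near 0. For genotype, 0 genes were called by limma with the mean of probe sets, quantile normalization, log2(value + 16), the filter on dim genes, the intensity trend or an age left out, and by the methods' t-test as run once. Unadjusted p under 0.05 then held for 489 to 904 genes in limma and 278 in the t-test. In limma it held for 4 of the 10 without 2W (687 of all genes), 3 without D3 (726) and 1 without E16.5 (904). The median genotype effect of the 10 depended on the 2W arrays. It was -0.31 with all 3 ages, 0.14 without 2W, -0.57 without D3 and -0.41 without E16.5. The interval for Spink8 reached from -1.19 to 0.48 without D3, and that for Spink10 from -0.41 to 0.13 without 2W. With 1 array left out, genes called ranged from 333 to 4593 for D3 against E16.5, from 3453 to 5342 for 2W against E16.5 and from 327 to 2809 for 2W against D3, and calls among the 10 from 4 to 8, 10 to 10 and 0 to 7. The fewest calls for D3 against E16.5 and 2W against D3 came without the Shp2f/f array of D3 and the fewest for 2W against E16.5 without the Shp2f/f array of E16.5 (844 for D3 against E16.5). Without the SCSKO array of D3, 465 and 440 genes were called in the contrasts that use D3. The change of Defb9 from E16.5 to D3 then ranged from -0.056 to 0.69, that of Spink10 from -0.36 to 0.55, and that of Wfdc15b from D3 to 2W from -0.23 to 1.28, none of these called in the full fit. Each fit without an array has fewer residual degrees of freedom than the full fit, including those with the most calls. The cause of the range was not tested. The filter on bright list genes, the fit without single arrays and the median without Pcp4 were chosen after seeing the data.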

Other observations

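Genes for other secreted antimicrobial proteins and protease inhibitors did not share the 1W difference as a list: of 27 measured, 1 was at least 2-fold higher in SCSKO at 1W, the lipocalin gene Lcn2 (6.77 in Shp2f/f and 7.93 in SCSKO), and the median was 0.05. At 2W, 1 was at least 2-fold lower, Slpi, which encodes a WAP domain inhibitor of leukocyte proteases (8.75 in Shp2f/f and 7.38 in SCSKO). Slpi differed by -0.12 at 1W.

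Androgen-responsive genes had a median of 0.02 at 1W and 0.31 at 2W over 11 measured genes. Rhox5, a homeobox gene that androgen switches on in Sertoli cells, was at 4.71 in Shp2f/f against 4.96 in SCSKO at 1W, and at 7.90 against 9.92 at 2W. It was thus higher in SCSKO at 2W, where 9 of the 10 genes described above lay lower. A list of genes linked to calmodulin was taken beside Pcp4. Its 5 measured genes, among them Pcp4l1 (7.84 in Shp2f/f against 7.57 in SCSKO at 1W), held 0 genes at least 2-fold apart at any age.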
